A study of Homo sapiens with 6 samples.

Results

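Cohesin is the protein ring that holds sister chromatids together from S phase until anaphase, and 10 genes of its core and its regulators were followed in papillary thyroid carcinoma cells that overexpress *RRM2*. The members were chosen by name: the ring subunits *SMC1A*, *SMC3*, *RAD21*, *STAG1* and *STAG2*, and the regulators *CDCA5*, *ESCO1*, *ESCO2*, *PTTG1* and *ESPL1*. They are 10 of the 58735 genes in the table, and all 10 were among the 13621 genes tested. The host line, TPC-1, was derived from a human papillary thyroid carcinoma. RNA was sequenced from 3 samples labelled as the wild strain and 3 labelled as the *RRM2* overexpression strain, named *RRM2*-OE-TPC-1 in the paper. Replicate numbers run from 1 to 3 in each group. The overexpressing cells had been infected with a lentivirus that drives full-length *RRM2* from a CMV promoter and had then been selected with puromycin. Neither the labels nor the methods call it a single clone. No empty vector group was analysed here, so infection, selection and *RRM2* itself cannot be told apart. For overexpressing replicates 2 and 3 the genotype field says RRM3 and RRM4 and the title says *RRM2*. The libraries held between 14317091 and 17084067 reads on genes. *RRM2* rose from 8.92 ± 0.346 to 48.4 ± 1.78 FPKM (SD, n = 3 each), reads of the introduced and the endogenous copy together. Its exons share 1077 bases with *AC007240.1* on the same strand (mean 0.466 FPKM). FPKM is the number of fragments scaled by gene length and by depth. Levels of different genes can be set side by side only with care, because each gene has a single listed length. That length need not be the length of the transcript these cells express. Of 8 thyroid markers, 2 were at 0.5 FPKM or more in every library, *PAX8* (67.3 to 70.8 FPKM in TPC-1, against 56.3 to 59.8 FPKM in *RRM2*-OE-TPC-1) and *FOXE1*. *NKX2-1* was listed at 0 in every library and *TG* was at 0.113 FPKM or less. The summed level of 5 leukocyte markers was at most 0.0355 FPKM, and that of 4 endothelial markers was 0.873 to 1.05 FPKM in TPC-1, against 0.0667 to 0.115 FPKM in *RRM2*-OE-TPC-1. Of 6 fibroblast markers the sum was 2.78 to 3.16 and 2.78 to 2.94 FPKM, most of it *PDGFRB* (means 2.12 and 2.37 FPKM). *COL1A1* was at 0.816 and 0.501 FPKM and *LUM* at 0.0940 and 0 FPKM, and *COL1A2*, *COL3A1* and *DCN* were listed at 0 in every library. Of 6 epithelial markers the sum was 42.9 to 47.1 and 88.4 to 90.8 FPKM. *KRT18* made up most of the epithelial sum (means 41.2 and 85.2 FPKM), while *KRT8* was at 2.56 and 3.48 FPKM and *KRT7* at 1.18 and 1.01 FPKM. *KRT19*, *EPCAM* and *CDH1* were at 0.125 FPKM or less in every library, so the higher sum rests on keratins alone. *PECAM1* made up most of the endothelial sum in TPC-1 (means 0.924 and 0.0588 FPKM), while *VWF* was at 0.00577 and 0.0325 FPKM.

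The ring is built from SMC1A and SMC3, a pair of long coiled-coil ATPases, closed by the kleisin RAD21, which carries either STAG1 or STAG2. The ring is loaded before replication, and during S phase ESCO1 and ESCO2 acetylate SMC3, which lets sororin, the product of *CDCA5*, hold the ring on the DNA against its release factor. At the onset of anaphase the anaphase-promoting complex destroys securin, the product of *PTTG1*, and the freed separase, the product of *ESPL1*, cuts RAD21. The core subunits also extrude chromatin loops in interphase and are made throughout the cycle. Sororin, ESCO2, securin and separase are best known from S phase to mitosis, and their genes are usually transcribed together with those of cell division.

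Promoters are shown for the 4 members that rose and had an entry, and for 1 that did not pass. Words known from cell cycle promoters are marked in them. All members with an entry that did not pass held such words too, so the words do not set apart the members that rose. The windows are those of RefSeq on GRCh38.p14, from 250 bases before to 50 bases after the start, 5′ to 3′ on the strand of the gene. Of the 10 members, 7 had entries, 11 in all, and *RAD21*, *ESCO1* and *ESCO2* had none. The words searched on both strands were TTTGAA and TTCGAA (the CHR element), CCAAT, and TTTCCCGC, TTTCGCGC, TTTGCCGC and TTTGGCGC (E2F), and no word of 1 kind holds a word of another. Of the 35116 promoter windows in the reference, 16.4% held a CHR word, 34.6% CCAAT and 3.31% an E2F word. Capitals mark these words. The window of *CDCA5* (chr11:65083991-65084290, minus strand) holds an E2F word 45 bases and a CHR word 26 bases before the start. That of *ESPL1* (chr12:53268049-53268348, plus strand) holds CCAAT, reversed, at 48 bases and a CHR word at 31 bases. *PTTG1* (chr5:160421605-160421904, plus strand, the first of 2 entries) has CCAAT 3 times, at 103, 51 and 48 bases, the last 2 sharing bases. *SMC1A* (chrX:53422605-53422904, minus strand, the second of 2 entries) has an E2F word at 20 bases. *SMC3* (chr10:110567445-110567744, plus strand) is shown for comparison and holds a CHR word, reversed, 151 bases before the start.
*CDCA5*: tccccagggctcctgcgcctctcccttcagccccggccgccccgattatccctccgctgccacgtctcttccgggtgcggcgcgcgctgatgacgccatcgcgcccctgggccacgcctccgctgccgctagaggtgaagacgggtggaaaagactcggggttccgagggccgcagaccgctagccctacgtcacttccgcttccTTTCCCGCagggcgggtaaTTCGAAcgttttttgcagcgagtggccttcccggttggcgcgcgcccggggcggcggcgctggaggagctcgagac
*ESPL1*: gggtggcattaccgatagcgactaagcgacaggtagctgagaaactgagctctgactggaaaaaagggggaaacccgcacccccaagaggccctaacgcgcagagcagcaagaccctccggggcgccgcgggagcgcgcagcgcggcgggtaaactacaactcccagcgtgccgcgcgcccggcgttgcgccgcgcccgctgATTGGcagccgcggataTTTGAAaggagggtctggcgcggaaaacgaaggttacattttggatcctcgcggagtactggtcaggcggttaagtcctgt
*PTTG1*: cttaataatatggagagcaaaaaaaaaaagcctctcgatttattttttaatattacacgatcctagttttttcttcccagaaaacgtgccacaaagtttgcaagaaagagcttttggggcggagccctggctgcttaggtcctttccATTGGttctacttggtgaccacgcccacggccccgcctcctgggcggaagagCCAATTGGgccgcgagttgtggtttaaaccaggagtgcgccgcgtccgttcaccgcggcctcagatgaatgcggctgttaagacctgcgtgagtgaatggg
*SMC1A*: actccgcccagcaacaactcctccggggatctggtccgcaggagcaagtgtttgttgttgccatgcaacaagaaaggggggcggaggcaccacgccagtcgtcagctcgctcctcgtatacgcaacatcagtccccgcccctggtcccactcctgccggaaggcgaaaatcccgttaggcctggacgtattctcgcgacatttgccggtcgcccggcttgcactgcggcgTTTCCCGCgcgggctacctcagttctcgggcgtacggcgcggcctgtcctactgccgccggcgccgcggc
*SMC3*: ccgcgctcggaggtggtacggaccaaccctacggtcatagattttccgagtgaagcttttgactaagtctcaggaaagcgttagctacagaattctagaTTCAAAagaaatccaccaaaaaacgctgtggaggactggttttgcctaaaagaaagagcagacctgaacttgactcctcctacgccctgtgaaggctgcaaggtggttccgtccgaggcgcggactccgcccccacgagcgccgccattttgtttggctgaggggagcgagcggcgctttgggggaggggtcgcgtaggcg
The words are matches of letters and no measure of binding. Windows of *STAG1* and *STAG2*, not shown, held such words as well: *STAG1* had an E2F word 183 bases before its start and CCAAT 2 times, and 1 of the 3 windows of *STAG2* had an E2F word 51 bases before its start. The other window of *SMC1A* held none of the words.

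The comparison asked which members differed between the groups. In *RRM2*-OE-TPC-1, 5 members rose and 1 fell at an adjusted p of 0.05 or less from limma, the threshold given in the design text of the series. The 5 that rose were *CDCA5*, *PTTG1*, *ESCO2*, *ESPL1* and *SMC1A*, and the 1 that fell was *ESCO1*. *RAD21*, *SMC3*, *STAG1* and *STAG2* did not pass. So many genes passed in these libraries that the count has to be read against them: 67.6% of all tested genes passed this threshold, 34.9% higher and 32.7% lower, against 60.0% of the members. With a change of at least 2-fold required as well, 2 of 10 members were called, *CDCA5* and *PTTG1*, both higher, against 4.48% of all tested genes higher and 6.97% lower. Both are also in the list of cell cycle genes that the study drew from these same libraries. All genes of that list changed by more than 2-fold there. Neither the direction nor the 2-fold call of *CDCA5* and *PTTG1* is therefore independent evidence, and their count gives no support of its own. The median log2 fold change of the members was 0.33, and that of all tested genes was 0.011. In 7 members the FPKM ranges of the groups did not overlap, and this was so for 72.2% of all tested genes.

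**Figure D1:**
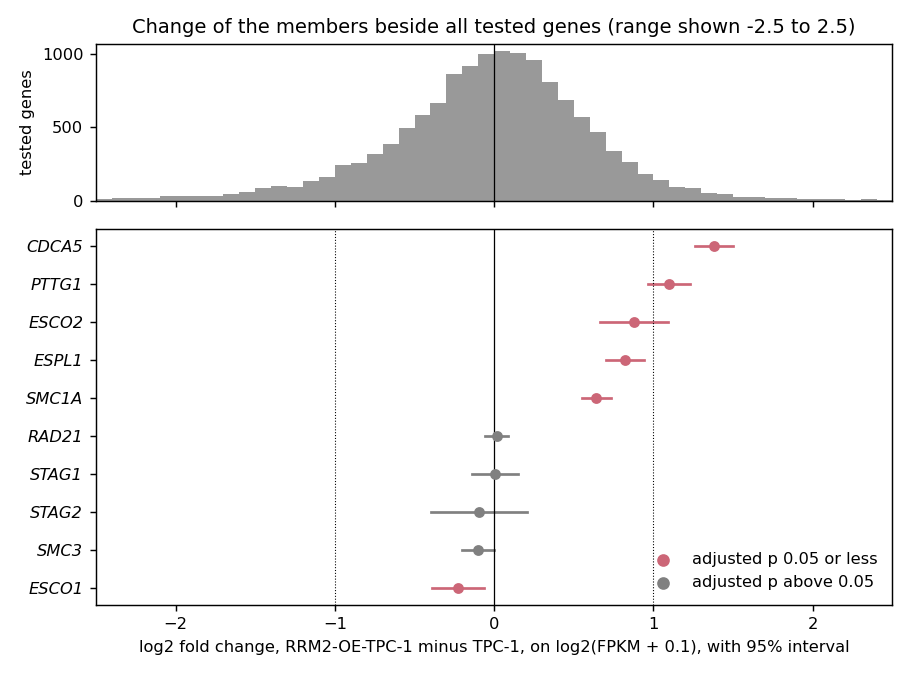
Log2 fold changes of the 10 members on log2(FPKM + 0.1) with their 95% intervals from limma (lower panel, dotted lines at a 2-fold change) beside the distribution over the tested genes between -2.5 and 2.5 (upper panel). *CDCA5* and *PTTG1* lie past the line at 1, 3 more members lie between 0.64 and 0.88, and the other 5 lie between -0.23 and 0.016.

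The SMC subunits form the arms of the ring, and of the pair only *SMC1A* passed. Its FPKM in replicates 1 to 3 was 15.8, 15.6 and 15.5 in TPC-1, against 25.3, 23.4 and 24.6 in *RRM2*-OE-TPC-1. Every *RRM2*-OE-TPC-1 library was above every TPC-1 library, and the means were 15.6 ± 0.145 and 24.4 ± 0.941 (SD, n = 3 each). The difference was 0.64 on the log2 scale (standard error 0.0393, 95% interval 0.55 to 0.73, adjusted p = 3.17e-06 from limma), and 12.1% of all tested genes rose by as much or more. *SMC1A* (ENSG00000072501) lies on chromosome X from 53374149 to 53422728 of GRCh38.

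For its partner *SMC3* (ENSG00000108055, on chromosome 10 from 110567691 to 110604636) the FPKM was 25.1, 24.9 and 26.7 in TPC-1, against 24.8, 23.6 and 23.0 in *RRM2*-OE-TPC-1. The groups did not overlap, but by a narrow margin. The log2 fold change was -0.10 (95% interval -0.20 to -0.0011), with an adjusted p of 0.0683 from limma. It was past the threshold in fits without *RRM2*-OE-TPC-1 replicate 1 (adjusted p = 0.0341) and with scaling to library totals (adjusted p = 0.0173), and over all alternatives the adjusted p lay between 0.0173 and 0.218.

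*RAD21* (ENSG00000164754, on chromosome 8 from 116845935 to 116874866), the subunit that separase cuts, was the most abundant member. Its FPKM was 71.3, 73.1 and 72.5 in TPC-1, against 74.7, 71.2 and 73.5 in *RRM2*-OE-TPC-1, with ranges that overlapped. The log2 fold change was 0.016 (95% interval -0.058 to 0.089, adjusted p = 0.681 from limma), and its sign changed with library totals and without *RRM2*-OE-TPC-1 replicate 1. Its exons share 518 bases with *UTP23* (mean 7.78 FPKM) and 361 bases with *RAD21-AS1* (mean 0.0352 FPKM), both on the opposite strand. The methods describe directional libraries and do not say whether strand was used in counting.

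The STAG subunits, which bind RAD21 in a mutually exclusive way, did not pass either and stood at very different levels. *STAG1* (ENSG00000118007, on chromosome 3 from 136336233 to 136752403) had 10.3, 9.65 and 10.7 FPKM in TPC-1, against 11.04, 9.87 and 9.88 FPKM in *RRM2*-OE-TPC-1. *STAG2* (ENSG00000101972, on chromosome X from 123960212 to 124422664) had 1.33, 1.55 and 1.84 FPKM in TPC-1, against 1.47, 1.37 and 1.53 FPKM in *RRM2*-OE-TPC-1. In both genes the groups overlapped. The log2 fold changes were 0.0027 for *STAG1* (95% interval -0.14 to 0.15, adjusted p = 0.971 from limma) and -0.096 for *STAG2* (95% interval -0.40 to 0.21, adjusted p = 0.541 from limma). The interval of *STAG2* is the widest of the 10, and between 174 and 240 reads per library stand behind its values. The sign of *STAG1* changed with library totals and without TPC-1 replicate 2 or *RRM2*-OE-TPC-1 replicate 1, and that of *STAG2* without TPC-1 replicate 3. *STAG1* shares 1664 exonic bases with *PCCB* on the opposite strand (mean 10.2 FPKM), so its level is uncertain. *STAG2* shares 241 bases with *TENM1* (mean 0.000754 FPKM) and 28 bases with *AL121601.1* (mean 0.408 FPKM), both on the opposite strand. *STAG2* stood at percentile 19.4 and *STAG1* at percentile 69.3 of the mean FPKM of tested genes in TPC-1.

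**Figure D2:**
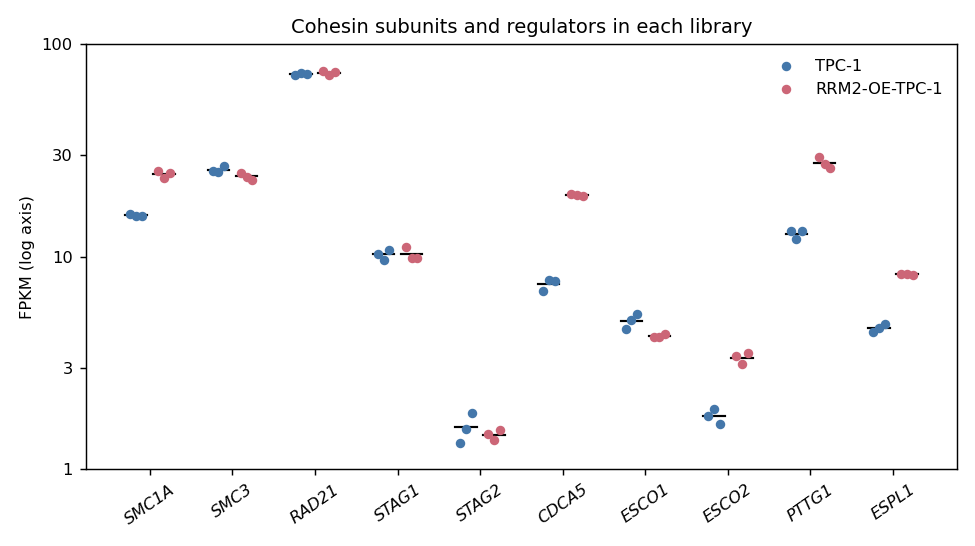
FPKM of each member in each library on a log axis, with TPC-1 in blue, *RRM2*-OE-TPC-1 in red and the mean of 3 libraries as a black line. *CDCA5*, *PTTG1*, *ESPL1*, *ESCO2* and *SMC1A* separate upward, while *RAD21* stays between 71.2 and 74.7 FPKM and *STAG2* between 1.33 and 1.84 FPKM.

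Sororin showed the largest change of the members. *CDCA5* (ENSG00000146670, on chromosome 11 from 65066300 to 65084164) had 6.90, 7.76 and 7.64 FPKM in TPC-1, against 19.8, 19.4 and 19.3 FPKM in *RRM2*-OE-TPC-1. The means were 7.43 ± 0.465 and 19.5 ± 0.258 (SD, n = 3 each), well apart. The log2 fold change of 1.38 (standard error 0.0522, 95% interval 1.26 to 1.50, adjusted p = 3.05e-07 from limma) was reached or exceeded by 1.87% of tested genes, and it lay between 1.28 and 1.41 over the alternatives.

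The acetyltransferases that modify SMC3 went opposite ways. *ESCO2* (ENSG00000171320, on chromosome 8 from 27771949 to 27812640), the enzyme active during replication, had 1.78, 1.92 and 1.63 FPKM in TPC-1, against 3.42, 3.11 and 3.50 FPKM in *RRM2*-OE-TPC-1. Its groups did not overlap, and the log2 fold change was 0.88 (standard error 0.0923, 95% interval 0.66 to 1.09, adjusted p = 6.29e-05 from limma). *ESCO1* (ENSG00000141446, on chromosome 18 from 21529281 to 21600884), which also acts outside S phase, had 4.58, 5.02 and 5.36 FPKM in TPC-1, against 4.19, 4.19 and 4.31 FPKM in *RRM2*-OE-TPC-1. It fell by 0.23 on the log2 scale (standard error 0.0707, adjusted p = 0.0198 from limma), and 32.7% of all tested genes were called lower. The call of *ESCO1* was lost without TPC-1 replicate 2 (adjusted p = 0.0511), without TPC-1 replicate 3 (0.0706), without *RRM2*-OE-TPC-1 replicate 1 (0.0502) and without *RRM2*-OE-TPC-1 replicate 2 (0.0540), and over all alternatives the adjusted p was 0.00788 to 0.0706.

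Securin and its target both rose. *PTTG1* (ENSG00000164611, on chromosome 5 from 160421822 to 160428744) had 13.2, 12.1 and 13.2 FPKM in TPC-1, against 29.6, 27.3 and 26.0 FPKM in *RRM2*-OE-TPC-1. The means were 12.8 ± 0.630 and 27.6 ± 1.82 (SD, n = 3 each). The difference was 1.10 on the log2 scale (standard error 0.0579, 95% interval 0.96 to 1.23, adjusted p = 1.54e-06 from limma). The interval reaches below 1, while the estimate stayed between 1.04 and 1.14 over the alternatives. The near copies *PTTG2*, *PTTG3P* and *PTTG4P* held at most 3 reads in any library. *ESPL1* (ENSG00000135476, on chromosome 12 from 53268299 to 53293643) had 4.44, 4.62 and 4.80 FPKM in TPC-1, against 8.24, 8.27 and 8.22 FPKM in *RRM2*-OE-TPC-1. The *RRM2*-OE-TPC-1 libraries lay close together and above all TPC-1 libraries, with a log2 fold change of 0.82 (standard error 0.0515, 95% interval 0.70 to 0.94, adjusted p = 3.49e-06 from limma).

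The order of levels changed with these differences. In TPC-1 the mean FPKM fell from *RAD21* (72.3) through *SMC3* (25.6), *SMC1A* (15.6), *PTTG1* (12.8), *STAG1* (10.2), *CDCA5* (7.43), *ESCO1* (4.99), *ESPL1* (4.62) and *ESCO2* (1.78) to *STAG2* (1.57). Neighbours in that order did not overlap except *ESCO1* with *ESPL1* and *ESCO2* with *STAG2*. In *RRM2*-OE-TPC-1 *PTTG1* (27.6) stood second after *RAD21* (73.1), followed by *SMC1A* (24.4) and *SMC3* (23.8), whose ranges overlapped. *CDCA5* (19.5) came next, ahead of *STAG1* (10.3), *ESPL1* (8.24), *ESCO1* (4.23), *ESCO2* (3.34) and *STAG2* (1.46), and these did not overlap with their neighbours.

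Ratios of FPKM within a library were compared for 5 pairs of members. With 3 libraries against 3 the two-sided exact permutation test cannot give a p under 0.1, so none of them could pass. The ratio of *SMC1A* to *SMC3*, subunits that enter the ring in equal number, was 0.629, 0.626 and 0.583 in TPC-1, against 1.02, 0.992 and 1.07 in *RRM2*-OE-TPC-1. The level of this ratio depends on the listed lengths of 10484 and 4275 bases, so a value near 1 shows no equal number of transcripts. The ratio of *CDCA5* to *SMC3* was 0.274, 0.312 and 0.287, against 0.797, 0.822 and 0.836. For *ESCO2* to *ESCO1* the ratio was 0.358 ± 0.0474 and 0.790 ± 0.0422, and for *PTTG1* to *ESPL1* it was 2.78 ± 0.178 and 3.35 ± 0.218 (SD, n = 3 each). In these 4 pairs every *RRM2*-OE-TPC-1 library was above every TPC-1 library, and the exact permutation test gave the smallest p it allows (p = 0.1, adjusted p = 0.125 over 5 ratios). *STAG2* to *STAG1* was 0.153 ± 0.0219 and 0.142 ± 0.0110 (SD, n = 3 each), and these ranges overlapped (exact permutation test, p = 0.5, adjusted p = 0.5).

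**Figure D3:**
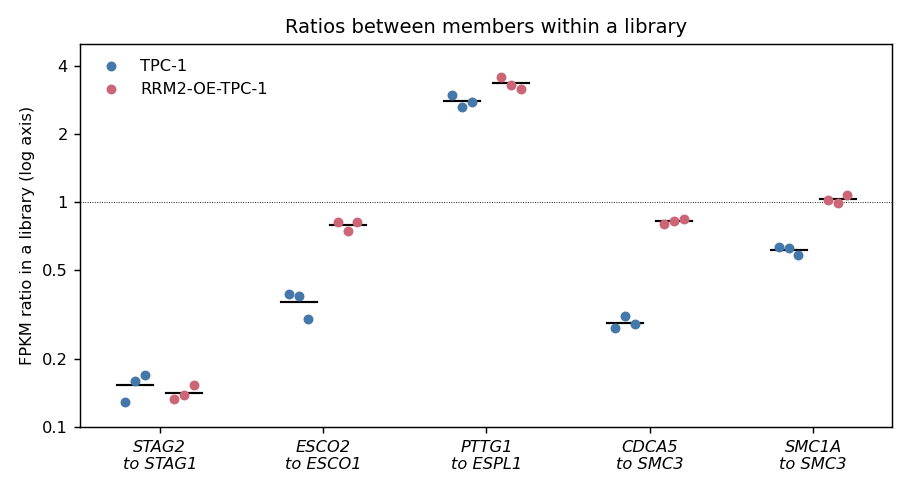
Ratios of FPKM between 2 members within each library on a log axis, with TPC-1 in blue, *RRM2*-OE-TPC-1 in red and the mean of 3 libraries as a black line. *SMC1A* to *SMC3* moves from 0.583 to 0.629 up to 0.992 to 1.07, and *STAG2* to *STAG1* stays between 0.129 and 0.171 in the 6 libraries.

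The rises of the members were accompanied by those of proliferation genes. *MKI67*, which marks cycling cells, had 24.8, 23.6 and 23.2 FPKM in TPC-1, against 40.3, 46.0 and 46.8 FPKM in *RRM2*-OE-TPC-1, higher by 0.89 on the log2 scale (limma, adjusted p = 5.22e-06). *TOP2A*, the topoisomerase of dividing cells, rose by 0.71 on the log2 scale (adjusted p = 8.10e-07 from limma). Of the 43 genes of a list for S phase, 42 were tested and 42 were called higher, with a median of 0.96, against 34.9% of all tested genes. *RRM2* is itself on this list, and without it 41 of 41 were called higher, with a median of 0.95. Of 54 genes for G2/M, 53 were tested, of which 46 were called higher and 3 lower, with a median of 0.70. The log2 fold changes of *ESCO2* (0.88), *ESPL1* (0.82) and *SMC1A* (0.64) lay below the S phase median, and of these *SMC1A* alone lay below the G2/M median. Those of *CDCA5* and *PTTG1* lay above both. In a separate flow cytometry assay, the paper reported a smaller G0/G1 share and a larger S phase share in *RRM2*-OE-TPC-1 than in control TPC-1 cells. In bulk RNA more cycling cells and more RNA per cell cannot be told apart, and the part of proliferation in the values of the members was not tested.

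Partners of cohesin were counted by function, with the same test, and each count is to be read beside the 34.9% of all tested genes called higher and the 32.7% called lower. Of 7 genes that load, release or position the ring 6 were tested, 3 were called lower and 1 higher, with a median log2 fold change of -0.18. *NIPBL*, the loader, fell from 9.86 ± 0.566 to 7.74 ± 0.182 FPKM (SD, n = 3 each), by 0.34 on the log2 scale (adjusted p = 6.40e-04 from limma). *CTCF*, which stops the ring at loop anchors, fell by 0.24 (adjusted p = 1.23e-03), and *WAPL*, the release factor, by 0.19 (adjusted p = 7.01e-03, named after its value was seen). Exons of *CTCF* share 1326 bases with *AC009095.1* on the opposite strand (mean 0 FPKM). *PDS5B*, which binds the ring with *WAPL*, rose by 0.14 (adjusted p = 0.0465), a call that was lost whichever 1 of the 6 libraries was left out (adjusted p = 0.0632 to 0.115) and with library totals (adjusted p = 0.208). Its paralog *PDS5A* had 16.5 and 16.6 FPKM. *HDAC8*, which removes the acetyl groups from SMC3, was under the filter on low values, at 0.448 to 0.548 FPKM in the 6 libraries. It held 164 to 212 reads per library, divided by a listed length of 22986 bases, so its low FPKM does not mean few reads.

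Factors that set up cohesion at replication forks were called higher in 6 of 7 cases and lower in none, with a median of 0.82, and 2 of 7 passed the 2-fold threshold, against 34.9% and 4.48% of all tested genes higher. *DSCC1*, a subunit of the alternative clamp loader, rose from 3.37 ± 0.541 to 10.99 ± 0.198 FPKM (SD, n = 3 each), by 1.69 on the log2 scale (adjusted p = 2.89e-06 from limma). *WDHD1*, a fork protein that links helicase and polymerase, rose from 2.74 ± 0.141 to 6.53 ± 0.305 FPKM (SD, n = 3 each), by 1.23 on the log2 scale (adjusted p = 1.88e-06).

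Among 12 genes that protect cohesin at centromeres or remove it in prophase, 8 were called higher and 2 lower, with a median of 0.33, against 34.9% and 32.7% of all tested genes. The higher count was 6 with no filter on low values, with library totals and without *RRM2*-OE-TPC-1 replicate 3. *BUB1*, whose kinase activity recruits shugoshin, rose by 1.02 on the log2 scale (adjusted p = 2.74e-07 from limma). It was the 1 gene of 12 past the 2-fold threshold, against 4.48% of all tested genes higher by that rule. *BUB1* missed that threshold with library totals and with a pseudocount of 1 (0.96 in both). *HASPIN*, a histone kinase of centromeres, rose by 0.94 (adjusted p = 2.12e-04), and its exons share 427 bases with *ITGAE* on the opposite strand (mean 2.26 FPKM). The 2 that fell encode regulatory subunits of the phosphatase PP2A. *PPP2R5A* went from 23.4 ± 1.14 to 14.1 ± 0.435 FPKM (SD, n = 3 each), a fall by 0.72 on the log2 scale (adjusted p = 4.31e-06), and *PPP2R5C* fell by 0.28 (adjusted p = 1.05e-03). Other PP2A subunits of the list rose, *PPP2R5D* by 0.38 (adjusted p = 3.08e-04), *PPP2R5E* by 0.20 (adjusted p = 0.0227) and the scaffold *PPP2R1A* by 0.14 (adjusted p = 0.0241), and *PPP2R5B* was at 0.15 (adjusted p = 0.263). These 4 were named after their values were seen.

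In the list of the anaphase-promoting complex and separase control, 15 of 21 genes were called higher and 1 lower, with a median of 0.35, against 34.9% and 32.7% of all tested genes. *CDC20*, the activator that turns the complex on securin, rose from 45.5 ± 2.63 to 116 ± 2.35 FPKM (SD, n = 3 each). It was the 1 gene of 21 past the 2-fold threshold, which is near the 4.48% of all tested genes higher by that rule. *UBE2C*, its ubiquitin-conjugating enzyme, rose by 0.88 on the log2 scale (adjusted p = 5.26e-06 from limma). *ANAPC16*, a small subunit, was the 1 that fell, by 0.35 (adjusted p = 9.39e-05), and its exons share 139 bases with *ASCC1* on the opposite strand (mean 5.60 FPKM). *BUB1* and *CDC20* belong to the list the study drew from these libraries, so their 2-fold calls are not independent evidence.

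**Figure D4:**
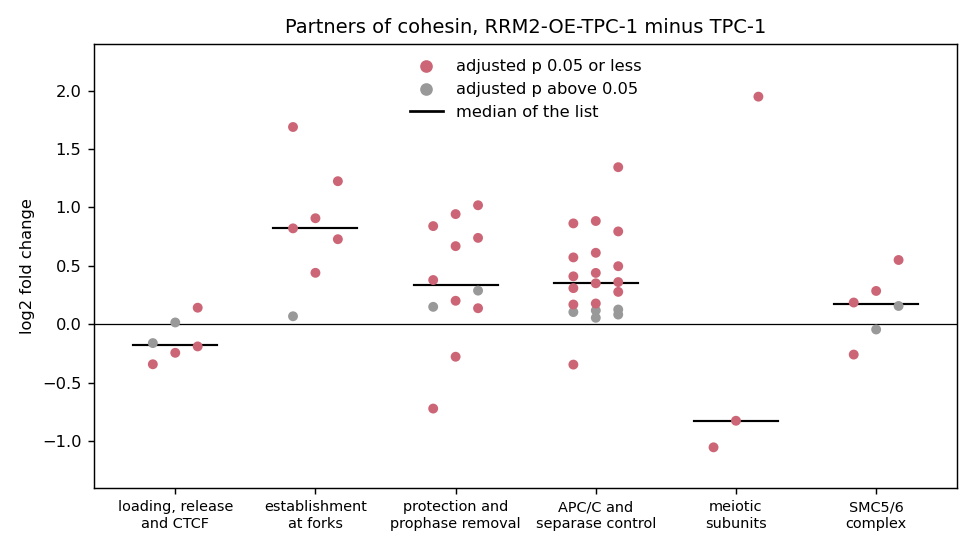
Log2 fold changes of the tested partners of cohesin in 6 lists, 1 point per gene, in red where the adjusted p was 0.05 or less and in grey otherwise, with the median of each list as a black line. The median is -0.18 for loading, release and CTCF and 0.82 for establishment at forks, and the 2 lowest points of the meiotic list are *STAG3* and *REC8*.

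Of 4 meiotic counterparts of the subunits 3 were tested, with 1 called higher and 2 lower. *SMC1B* held at most 4 reads in a library and was not tested. *REC8*, the meiotic kleisin, fell from 2.64 ± 0.408 to 1.44 ± 0.195 FPKM (SD, n = 3 each; adjusted p = 9.33e-04 from limma). *STAG3* had 0.607, 0.686 and 0.599 FPKM in TPC-1, against 0.339, 0.190 and 0.241 FPKM in *RRM2*-OE-TPC-1, a log2 fold change of -1.05 that was -0.92 without *RRM2*-OE-TPC-1 replicate 2. Exons of *STAG3* share 1606 bases with *PVRIG* on the same strand and 1163 bases with *CASTOR3* on the opposite strand, and its value is uncertain. Both neighbours were lower as well, *PVRIG* at means of 0.511 and 0.141 FPKM and *CASTOR3* at 2.46 and 0.677 FPKM. Of the *STAG3*-like genes, *STAG3L1*, *STAG3L3* and *STAG3L5P* were lower in *RRM2*-OE-TPC-1 without overlap, *STAG3L2* overlapped and *STAG3L4* was higher. Their part in the value of *STAG3* was not tested. *RAD21L1* rose, from 7 to 18 reads per library in TPC-1 to 39 to 65 reads in *RRM2*-OE-TPC-1 (log2 fold change 1.95, adjusted p = 7.93e-04 from limma). Its exons share 204 bases with *SNPH* of the same strand, which averaged 5.04 FPKM. *RAD21L1* passed the filter on low values only through its *RRM2*-OE-TPC-1 libraries (0.834 to 1.65 FPKM, against 0.161 to 0.395 FPKM in TPC-1). *STAG3* passed it only through its TPC-1 libraries. Their calls, also within the counts of this list, therefore give no independent support for a difference. With a pseudocount of 1 neither passed the 2-fold threshold, at -0.38 for *STAG3* and 0.82 for *RAD21L1*.

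The SMC5/6 complex, a relative of cohesin in DNA repair, had 3 of 6 genes called higher and 1 lower, with a median of 0.17, and 4 of 6 called in all is near the 67.6% of all tested genes. The higher count was 2 with library totals, with no filter on low values and with the replicate block, and 2 to 4 with 1 library left out. *SMC5* rose from 5.85 ± 0.487 to 8.59 ± 0.344 FPKM (SD, n = 3 each), by 0.55 on the log2 scale (adjusted p = 1.90e-04 from limma), and *SMC6* rose by 0.29 (adjusted p = 7.55e-03). *SMC6* shares 107 exonic bases with *GEN1* on the opposite strand (means 2 FPKM in TPC-1 and 3.61 FPKM in *RRM2*-OE-TPC-1). *NSMCE1* fell by 0.26 (adjusted p = 0.0152), a call that was lost when TPC-1 replicate 3 (adjusted p = 0.0515) or *RRM2*-OE-TPC-1 replicate 2 (adjusted p = 0.0541) was left out. *NSMCE2* was at -0.045 with overlapping groups (adjusted p = 0.494), and its exons share 162 bases with *WASHC5* on the opposite strand (mean 29.7 FPKM).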

How the data were processed

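RNA of 3 wild strain TPC-1 and 3 *RRM2*-OE-TPC-1 libraries was sequenced, and the labels describe biological triplicates. Per the submitters' processing notes, HISAT2 (2.0.5), featureCounts (1.5.0) and DESeq2 (1.20.0) were used with GRCh38.p14. The authors divided read counts by gene length and depth and deposited FPKM values. The methods describe poly(A) selection, and the sample labels instead name ribosomal RNA depletion with RNase R treatment. All 58735 identifiers had the same positions in GENCODE 29. Values times gene length were whole multiples of 1 step per library for 100% of values (tolerance 0.01), which gave the reads behind each value.

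Values were tested as log2(FPKM + 0.1) with limma 3.58.1 (trend, R 4.3.3), with Benjamini-Hochberg adjustment over the 13621 genes with at least 0.5 FPKM and 10 reads in 3 libraries. Fold changes on this scale understate those of low genes. The script was tested on simulated data. Ratios were compared with scipy 1.17.1. Named were the members and *RRM2*, *MKI67* and *TOP2A*, and in each partner list the genes past both thresholds or else up to 2 per direction. Members and lists, written by hand, were chosen with earlier results of these data known. The promoter words were chosen after the fold changes had been seen. Same-numbered libraries shared no deviation (correlations of -0.011, -0.0060 and -0.055). *RRM2*-OE-TPC-1 replicate 1 stood apart from replicates 2 and 3, with a mean chi-square of reads per gene of 5.30 and 6.00. That value was 1.82 between replicates 2 and 3, and 3.05 to 3.23 between TPC-1 libraries. Replicate 1 also had 4.29% mitochondrial reads, against 5.74% and 5.89% in replicates 2 and 3. Other pseudocounts, filters, scalings, the replicate block, voom and each library left out were tried.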

Additional observations from a re-analysis of the deposited data

How the results depend on the processing

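The direction and call of *CDCA5*, *PTTG1*, *ESCO2*, *ESPL1*, *SMC1A* and *RRM2* and the 5 ratios' directions were the same under each alternative run. With scaling to library totals, which moved the median of all genes by -0.056, the log2 fold changes were -0.16 for *SMC3* (past the threshold), -0.042 for *RAD21* and -0.055 for *STAG1*, 2 members were called lower, 0 loading genes higher, and 0 protection genes passed the 2-fold threshold. With 1 library left out, log2 fold changes ranged from -0.13 to -0.071 for *SMC3*, -3.3e-06 to 0.035 for *RAD21*, -0.050 to 0.038 for *STAG1*, -0.20 to 0.017 for *STAG2* and -0.29 to -0.18 for *ESCO1*. Counts then ranged from 0 to 1 for members called lower, meiotic genes lower by 2-fold and SMC5/6 genes lower, from 1 to 2 for protection genes higher by 2-fold, and were 0 for loading genes higher. That last count was also 0 with no filter on low values. With a pseudocount of 1, 0 protection genes and 0 meiotic genes in either direction passed the 2-fold threshold, and 716 genes in all did so against 1560. The cause was not tested.

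The replicate number as a replicate block left 5 members called higher and 1 lower, 0 loading genes higher, and 8934 genes in all against 9207. Same-numbered libraries did not correlate best with each other. A count test and DESeq2 on recovered reads were planned and not run, since the values are FPKM, and voom on those reads was added after seeing the data. Few reads stand behind *STAG2* (174 to 240 per library) and *RAD21L1* (7 to 65).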
